A study of Sus scrofa with 16 samples.

Results

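Antioxidant enzymes of liver were described here as 10 genes: SOD1, SOD2, SOD3, CAT, GPX1, GPX3, GPX4, PRDX2, PRDX6 and TXN. Their members were the array probes assigned to one of these genes by symbol, accession or full name, and 45 of 43603 probes were. For 8 genes the files give the symbol, SOD3 was named through its RefSeq accession, and PRDX2 only through the full protein name in a probe description. In 9 genes at least 1 probe was bright enough to be tested, with 44 tested probes in all. SOD3 was not.

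The livers came from 16 pigs (Sus scrofa) weighing 20 kg and fed ad libitum, 8 of a low-RFI line (labelled RFIneg) and 8 of a high-RFI line (labelled RFIpl). Residual feed intake (RFI) is the feed an animal eats beyond what its growth and maintenance predict. Each pig's total RNA was labelled with Cy3 and read on its own 1-colour Agilent array, so p-values here measure the spread between pigs. The labels give neither sex nor litter, and with 1 line per direction of selection, selection and drift between the lines cannot be told apart.

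Superoxide dismutases turn superoxide into hydrogen peroxide: SOD1 in the cytosol, SOD2 in mitochondria and SOD3 outside the cell. Catalase (CAT), a peroxisomal enzyme abundant in liver, the selenium-dependent glutathione peroxidases and the thiol-dependent peroxiredoxins then remove hydrogen peroxide or lipid peroxides. Thioredoxin (TXN) supplies electrons to many peroxiredoxins. Liver forms much hydrogen peroxide in fatty acid and purine breakdown and carries these enzymes at high levels.

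Each level is a log2 signal minus its array's 75th percentile, and a change is low-RFI minus high-RFI on that scale. Where a gene had several tested probes, the one brightest on average stands for it. Levels of different probes are not comparable, since probes bind with different strength. Arrays had 28576 to 34977 probes well above background, a local background of 29 to 40 intensity units (median over spots) and a 75th percentile of 320.0 to 508.5 units. High-RFI pig 6 had both the most probes above background and the lowest 75th percentile. In the other arrays at most 31808 probes were above background. Each of the 4 slides held 2 pigs per line, and the submitters' sample numbers form a series of 1 to 8 and a series of 55 to 62, each with 4 pigs per line. The labels do not say what the series stand for. Hepatocyte markers were present in both lines, with 8 of 11 measured and a summed log2 level between 11.27 and 11.71 in low-RFI livers and between 11.10 and 11.57 in high-RFI livers. In bulk liver, fewer cells of a type and less RNA per cell cannot be told apart.

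Most members were read by several 60-base probes along the same transcript, and a few of those probes are shown because agreement between probes bears on every value below. The first pair lies on the PRDX6 transcript from bases 667 and 686, and capitals mark the 38 bases that both probes share. Beyond these, the first probe ends in bases that differ from those of the second. Their levels over the 16 pigs correlated at r = 0.96. The others, all in lower case, start at base 503 of GPX3, 415 of GPX4, 157 of TXN and 732 of CAT.
PRDX6 A_72_P665743: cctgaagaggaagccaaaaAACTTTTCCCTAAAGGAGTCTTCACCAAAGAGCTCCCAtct
PRDX6 A_72_P575489: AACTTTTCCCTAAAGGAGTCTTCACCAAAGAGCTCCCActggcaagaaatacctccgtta
GPX3 A_72_P637182: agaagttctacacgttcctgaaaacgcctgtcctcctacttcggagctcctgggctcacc
GPX4 A_72_P646221: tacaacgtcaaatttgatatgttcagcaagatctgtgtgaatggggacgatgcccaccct
TXN A_72_P177678: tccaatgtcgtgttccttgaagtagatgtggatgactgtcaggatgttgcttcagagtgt
CAT A_72_P686566: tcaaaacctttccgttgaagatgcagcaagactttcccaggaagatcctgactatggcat

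The first question was whether the lines differ in these transcripts. None of the 9 measured members passed (limma, Benjamini-Hochberg adjusted p from 0.569 for GPX3 to 0.998 for SOD1), where 0.00997% of all 30097 tested probes and 0% of 4277 named genes did. The change was positive in 7 members and negative in 2, SOD1 and GPX3, against 54.4% of named genes with a positive change. The median change was +0.12 for the members and +0.02 for all named genes. This gap depended on the scaling: under normexp the median was +0.04 for the members, below the +0.06 of all named genes, and under quantile normalisation it was +0.06 against +0.02. The same 7 members were positive under both, where 63.4% and 54.6% of named genes were. Hepatocyte markers had a median change of +0.11, with 8 of 8 measured genes positive. Over pigs their mean had an r of −0.40 (SOD2) to 0.44 (CAT) with the members, and none of these relations passed. Their part in the members' changes was not tested. At an unadjusted p under 0.05 there was 1 member, GPX3, against 4.86% of named genes. Every member and every one of its tested probes overlapped between the lines, while 0.0432% of all tested probes and 0.0234% of named genes did not.

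**Figure D1:**
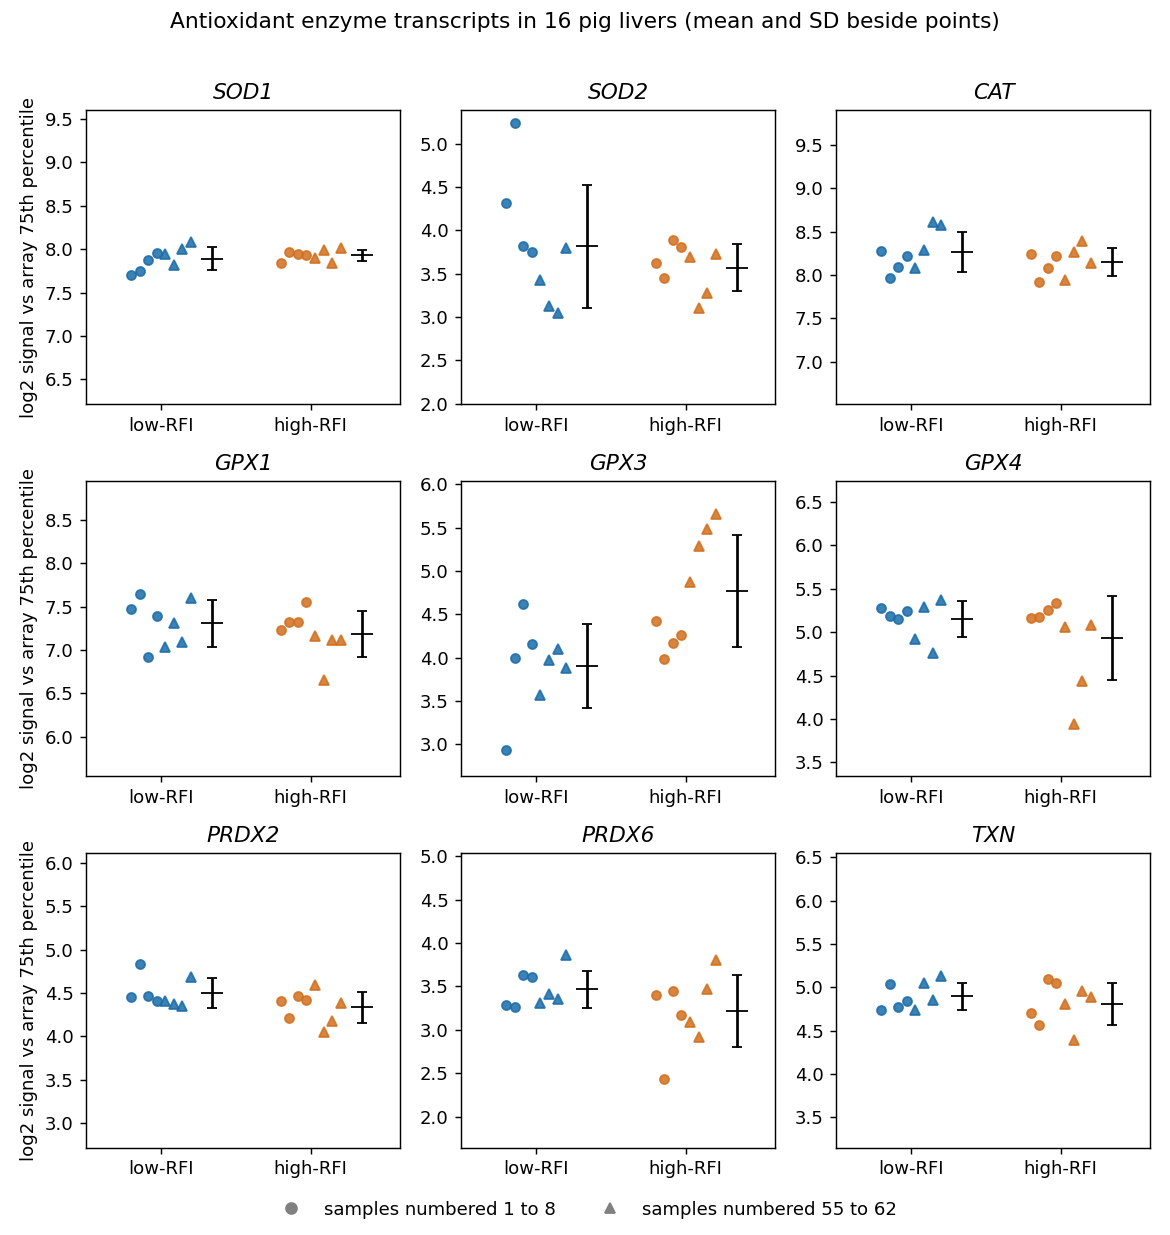
Each panel plots the log2 level of 1 gene relative to the array's 75th percentile for every pig, low-RFI on the left and high-RFI on the right, with the mean and SD beside the points and all panels spanning the same height. Circles are samples numbered 1 to 8 and triangles 55 to 62; GPX3 has the widest spread, 2.71 on the log2 scale, and SOD1 the narrowest, 0.38.

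The cytosolic dismutase SOD1, by its brightest probe, varied least among pigs. In low-RFI livers it had a lowest, median and highest level of 7.70, 7.91 and 8.08, and in high-RFI livers of 7.84, 7.94 and 8.01. All high-RFI pigs lay inside the low-RFI range. The change was −0.04 (SE 0.079, 95% interval −0.19 to 0.12). The SD of this probe over the 16 pigs was 0.10, and 0.631% of named genes had one as small. Repeated spots of a probe on the same array had a median CV of 7.07% to 9.13%, a spread of similar size to this SD. The other SOD1 probes had SDs of 0.12 to 0.19, the upper end of which was that of PRDX2, 0.19, so the small spread belongs to the brightest probe and not to every probe of the gene. The 5 SOD1 probes all had negative changes, from −0.04 to −0.21, and the last of these had an unadjusted p of 0.0324 and an adjusted p of 0.889 in limma.

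The mitochondrial dismutase SOD2, which inflammatory signals induce, spread far more. Low-RFI livers had a lowest, median and highest level of 3.05, 3.77 and 5.24, against 3.102, 3.65 and 3.89 in high-RFI livers. Low-RFI pigs 2 and 1, at 5.24 and 4.31, stood above every high-RFI pig, and the rest of the low-RFI line was within or just below the high-RFI range. The change was +0.25 (SE 0.249, 95% interval −0.24 to 0.73). Leaving out 1 pig at a time moved it between +0.04 and +0.36. All 6 SOD2 probes had positive changes, from +0.13 to +0.43, and a pair of probes of identical sequence agreed at r = 0.995 with a largest difference of 0.11. In the series numbered 1 to 8 the change was +0.59, against −0.10 in the series numbered 55 to 62, and the difference between the series was 0.69 (SE 0.398, limma adjusted p = 0.839).

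The extracellular dismutase SOD3 was not well above background in any of 8 low-RFI pigs and was so in 1 of 8 high-RFI pigs. Its signal was 1.88 to 7.11 intensity units in low-RFI livers and 1.82 to 27.0 in high-RFI livers. The single bright value was that of high-RFI pig 6, whose array had the most probes above background, and the next high-RFI pig was at 4.96. No fold is given, since nearly all of its values are only bounds.

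Catalase was at 7.97, 8.25 and 8.61 in low-RFI livers (lowest, median and highest) and at 7.92, 8.18 and 8.39 in high-RFI livers. Low-RFI pigs 7 and 8, at 8.61 and 8.58, were the only animals above the high-RFI range. The change was +0.11 (SE 0.111, 95% interval −0.10 to 0.33), and 8 of its 9 probes had positive changes, the other being at −0.0046.

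Of the glutathione peroxidases, GPX1, the cytosolic enzyme that reduces hydrogen peroxide, hardly separated the lines. Its lowest, median and highest levels were 6.92, 7.35 and 7.65 in low-RFI livers and 6.65, 7.20 and 7.56 in high-RFI livers. The ranges overlapped almost fully, and the lowest value was that of high-RFI pig 6. The change was +0.12 (SE 0.135, 95% interval −0.14 to 0.39), with all 6 probes between +0.09 and +0.17.

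GPX4, which reduces lipid peroxides in membranes, was at 4.76, 5.22 and 5.37 in low-RFI livers and at 3.94, 5.12 and 5.33 in high-RFI livers. High-RFI pigs 6 and 7 were low, at 3.94 and 4.44, while the other high-RFI pigs were between 5.06 and 5.33. The change was +0.22 (SE 0.179, 95% interval −0.13 to 0.57). Its 3 probes were at +0.20 to +0.23 and correlated at 0.98 to 0.99 over pigs, so the low values of these animals were read by each probe.

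GPX3, the glutathione peroxidase secreted into plasma, had the largest difference of the members. Its lowest, median and highest levels were 2.94, 3.99 and 4.62 in low-RFI livers and 3.98, 4.65 and 5.65 in high-RFI livers. The high-RFI mean was above the value of each low-RFI pig, 8 of 8, but the ranges overlapped. Means were 3.90 ± 0.49 in low-RFI and 4.77 ± 0.65 in high-RFI livers (SD, n = 8 each), a 1.82-fold lower mean level in low-RFI livers. The change was −0.86 (SE 0.266, 95% interval −1.38 to −0.34), with an unadjusted limma p of 0.00458 and an adjusted p of 0.569, so it did not pass. Among named genes 0.748% had a change at least as large in either direction, and 7.06% had an SD over pigs at least as large as its 0.71.

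The GPX3 difference was read by each of its probes. The 4 probes had changes of −0.70 to −0.86, with unadjusted limma p of 0.00375 to 0.0107 and adjusted p of 0.55 to 0.698. Over pigs they correlated with each other at 0.96 to 0.99. One of them, A_72_P440086, also lists the accession of CAPNS1, the small calpain subunit. On slides 1 to 4 alone the change was −0.80, −1.18, −0.58 and −0.90, and leaving out 1 pig at a time kept it between −0.98 and −0.73.

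**Figure D2:**
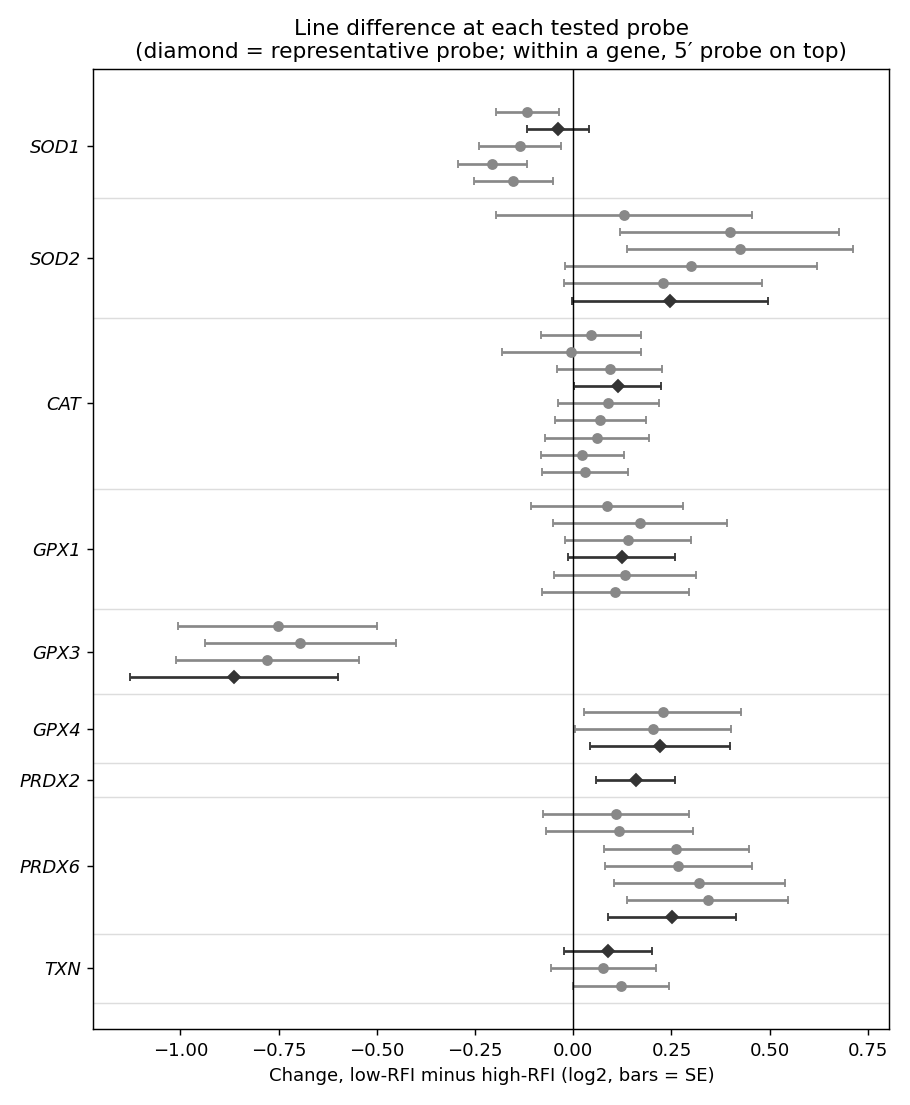
Each point is the change of 1 tested probe, low-RFI minus high-RFI on the log2 scale, with its SE as the bar; diamonds are the probes that represent a gene and probes run from the 5′ end of the transcript downwards. The 4 GPX3 probes sit at −0.70 to −0.86, apart from the other members' probes, which lie between −0.21 and +0.43.

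The GPX3 values were also split by series of sample numbers. In the series numbered 1 to 8, low-RFI pigs were at 2.94, 4.001, 4.62 and 4.15 and high-RFI pigs at 4.42, 3.98, 4.17 and 4.26. The lines overlapped there, with a change of −0.28 (SE 0.277). In the series numbered 55 to 62, low-RFI pigs were at 3.57, 3.97, 4.10 and 3.88 and high-RFI pigs at 4.88, 5.29, 5.49 and 5.65. Every low-RFI pig of that series lay below every high-RFI pig, and the same held for all 4 probes, with a change of −1.45 (SE 0.277, limma adjusted p = 0.0893). This p came from a fit of both series together, in which 0.0299% of all tested probes were called for that series. A limma fit of that series alone gave an adjusted p of 0.155. In that series 4.54% of named genes also had lines that did not overlap. The 2 series differed in the change by 1.17 (SE 0.392, unadjusted p = 0.00939, adjusted p = 0.66 in limma), which did not pass over all probes, where 0% passed and 6.23% had an unadjusted p under 0.05. Between the series themselves, over both lines, 2.24% of probes were called and 0 members were.

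**Figure D3:**
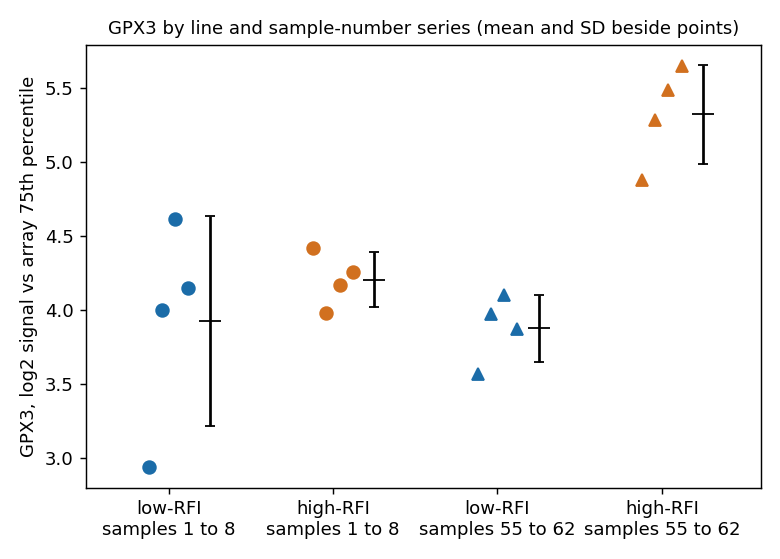
The points are GPX3 log2 levels of single pigs by line and by series of sample numbers, with the mean and SD of 4 pigs beside them. High-RFI pigs numbered 55 to 62 stand at 4.88 to 5.65, above the low-RFI pigs of that series at 3.57 to 4.10, while the lines overlap in the series numbered 1 to 8.

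The peroxiredoxins both had positive changes without passing. PRDX2, a cytosolic enzyme very abundant in red blood cells, was at 4.34, 4.43 and 4.83 in low-RFI livers and at 4.05, 4.39 and 4.59 in high-RFI livers. All 8 low-RFI pigs lay above the high-RFI mean, yet within the high-RFI range except pigs 2 and 8. The change was +0.16 (SE 0.102, 95% interval −0.04 to 0.36). A second probe that is only described as similar to PRDX2 followed it at r = 0.96 over the pigs, with a change of +0.12. Erythroid markers, of which 3 of 11 were measured by name, had a summed log2 level between 5.69 and 8.35 in low-RFI livers and between 6.49 and 8.13 in high-RFI livers. Their mean correlated with PRDX2 at r = 0.20 (permutation p = 0.47, rho = 0.04, permutation p = 0.899), but at 0.61 without low-RFI pigs 8 and 7, the animals farthest out in that mean, so no relation is read from it.

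PRDX6, a peroxiredoxin that uses glutathione and also acts on phospholipids, was at 3.26, 3.38 and 3.86 in low-RFI livers and at 2.43, 3.28 and 3.81 in high-RFI livers. High-RFI pig 2, at 2.43, was the lowest animal. The change was +0.25 (SE 0.163, 95% interval −0.07 to 0.57), and its 7 probes were at +0.11 to +0.34.

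TXN, the electron donor, was at 4.73, 4.85 and 5.13 in low-RFI livers and at 4.39, 4.85 and 5.09 in high-RFI livers. The medians were the same to 2 decimals, and high-RFI pig 6 was lowest. The change was +0.09 (SE 0.112, 95% interval −0.13 to 0.31), with 3 probes at +0.08 to +0.12. A probe described only as similar to bovine thioredoxin did not follow it, at r = −0.29.

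Other genes of antioxidant defence were counted next. Of 71 further antioxidant genes on 6 lists, 39 were measured, 21 with a positive and 18 with a negative change. None passed in limma, 2 had a positive change at an unadjusted p under 0.05, and the median change was +0.00. UOX, urate oxidase, which makes hydrogen peroxide in peroxisomes, averaged 2.17 ± 0.43 in low-RFI and 1.61 ± 0.42 in high-RFI livers (SD, n = 8 each), a change of +0.56 (SE 0.201, limma adjusted p = 0.708). MT3, a metallothionein that binds zinc and copper, averaged 3.06 ± 0.84 in low-RFI and 2.36 ± 0.25 in high-RFI livers, a change of +0.70 (SE 0.286, limma adjusted p = 0.844). Metallothioneins resemble each other in sequence, so its probe may also read other members of that family. MT1A, the other metallothionein measured on these lists, had a change of −0.03 (SE 0.124, limma adjusted p = 0.998).

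Other peroxiredoxins and glutathione peroxidases had 4 of 5 measured genes with a positive change, and the smallest p was that of the mitochondrial and peroxisomal PRDX5 at +0.22 (SE 0.113). GPX6 was at −0.12. Of 7 thioredoxin and glutaredoxin partners 4 were positive, with the methionine sulfoxide reductase MSRB1 at +0.11 and the thioredoxin reductase TXNRD1 at −0.20 (SE 0.159). Genes of glutathione synthesis and reduction had 2 of 6 positive and a median of −0.17. There GCLM, the modifier subunit of the rate-limiting ligase, was at +0.12, and ME1, malic enzyme, which makes NADPH, at −0.55 (SE 0.413). Regulators and targets of NRF2, the transcription factor that induces antioxidant genes, had 1 of 4 positive, with NQO1 at +0.10 and KEAP1, its inhibitor, at −0.07. Metal and selenium handling had 6 of 10 positive, with SECISBP2, a selenoprotein translation factor, at −0.08. Sources of peroxide and superoxide had 4 of 7 positive, with NCF1 of the phagocyte oxidase at −0.35. PRDX4, a peroxiredoxin of the endoplasmic reticulum added after its value was seen, had a larger change of +0.29 with a wider error (SE 0.175). Limma adjusted p of these named genes was 0.955 or above.

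The second question was which enzymes vary together between pigs. Of the 36 pairs among 9 members, 5 passed by Pearson's r (permutation p, Benjamini-Hochberg adjusted over the 36). The median r was 0.13 for these pairs, against 0.0036 for all pairs of named genes, whose quartiles were −0.24 and 0.25, and 0.89 for pairs of probes of the same member.

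GPX1 and GPX4 were the pair with the highest r, 0.77 (permutation p = 0.00031, adjusted p = 0.0112; rho = 0.82, permutation p = 0.00028, adjusted p = 0.00504). Without high-RFI pig 6 and low-RFI pig 2, the animals farthest out in GPX1, r was 0.63. Centred within lines r was 0.75, within series 0.71 and within slides 0.76. SOD2 and PRDX2 followed at r = 0.76 (permutation p = 0.00093, adjusted p = 0.0167; rho = 0.81, adjusted p = 0.00504), and at 0.63 without low-RFI pigs 2 and 7. Within lines their r was 0.75, within series 0.80 and within slides 0.76. Both of these pairs also passed by rank.

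The other 3 pairs did not pass by rank. GPX4 and PRDX2 had r = 0.66 (permutation p = 0.00659) with rho = 0.51 (permutation p = 0.048), and GPX1 and PRDX2 had r = 0.66 (permutation p = 0.0059) with rho = 0.49 (permutation p = 0.0543). GPX1 and TXN had r = 0.65 (permutation p = 0.00623) with rho = 0.46 (permutation p = 0.0747). The adjusted permutation p of all 3 was 0.0475 by r, and 0.215, 0.215 and 0.244 by rho. Without the 2 animals farthest out in the first gene of each pair r was 0.25, 0.32 and 0.39, so these relations were weaker without those animals. Leaving out the farthest animals also narrows the range, which by itself lowers r, so how far the relations rest on them is not settled.

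High-RFI pig 6 had the lowest level of GPX1, GPX4, PRDX2 and TXN, and without it 0 of the 36 pairs passed by Pearson's r. The r of GPX1 and GPX4 was then 0.60, the lowest with any pig left out. Its array also had 34977 probes well above background, against 28576 to 31808 in the others, and the part of this in the relations was not tested. Within slides 0 pairs passed, although r of the 5 pairs stayed between 0.66 and 0.76 there. Another scaling also moved the count, to 9 with each array's median and 1 with quantile normalisation.

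GPX3 had a negative r with 6 of the 8 other members. Its r was −0.56 with GPX4 and −0.55 with GPX1, neither past the threshold (permutation p = 0.0264 and 0.0254, adjusted p = 0.0895 for both; rho −0.54 and −0.48, permutation p = 0.0346 and 0.0598). Without the 2 farthest pigs r was −0.56 with GPX4 and −0.46 with GPX1.

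**Figure D4:**
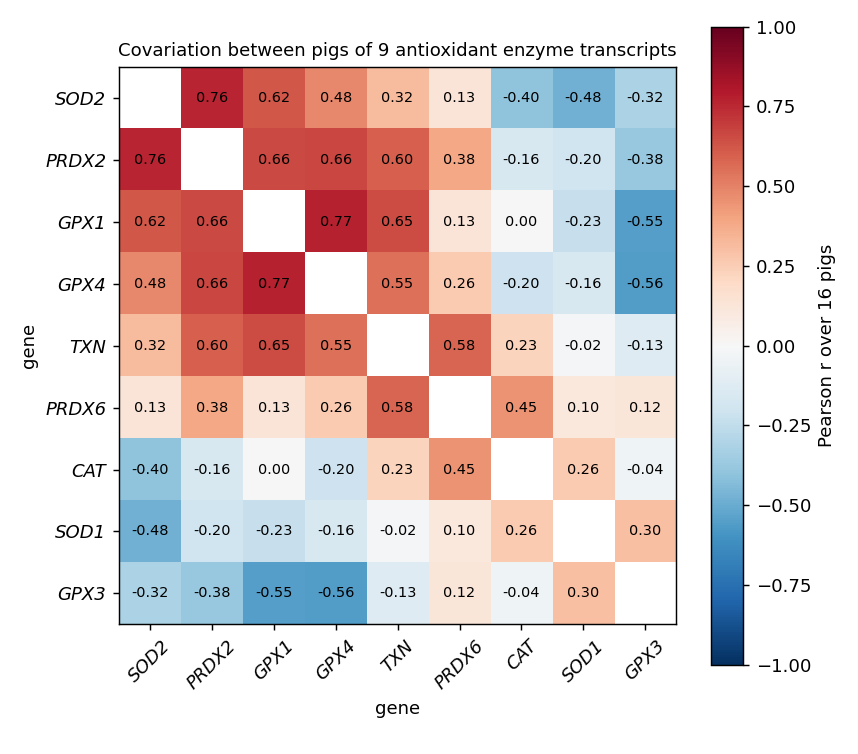
The grid gives Pearson's r over 16 pigs for each pair of the 9 measured genes, red for positive and blue for negative. The block of SOD2, PRDX2, GPX1, GPX4 and TXN holds the 5 pairs that passed, with r of 0.65 to 0.77, and GPX3 is mostly negative.

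Member levels were also set against the mean levels of 10 marker lists and of acute phase genes, 99 relations in all. By Pearson's r 1 relation passed, SOD1 with the acute phase genes that liver makes in inflammation (r = −0.88, permutation p = 2e-05, adjusted p = 0.00198; rho = −0.81, permutation p = 0.00024, adjusted p = 0.0238). Low-RFI pigs 1 and 2 had the highest acute phase means, 6.12 and 6.10, and the lowest SOD1, 7.70 and 7.75, while low-RFI pig 8 had 4.59 and 8.08. Without low-RFI pigs 1 and 2 r was −0.75, within series −0.86 and within lines −0.87. Of 12 acute phase genes 11 had a negative r with SOD1, the strongest being ITIH4 at −0.75, FGG, the gamma chain of fibrinogen, at −0.75, and CRP, C-reactive protein, at −0.72. These genes make up the mean that passed, so their single values are no separate test of it. The relation was weaker for HPX at −0.35 and HP at −0.10, and ORM1 was at +0.23.

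The relation depended on the SOD1 probe. The other 4 SOD1 probes had r of −0.43 to −0.60 and rho of −0.27 to −0.37 with the same mean, and between 0.00 and −0.20 without low-RFI pigs 1 and 2. These 4 were compared after the values of the first had been seen. The SOD1 probe that represents the gene is the brightest of the 5, no spot of any member was saturated, and SOD1 probes correlated with each other at only 0.42 to 0.81. The SD of the brightest probe over pigs, 0.10, was similar in size to the spread between repeated spots on an array.

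**Figure D5:**
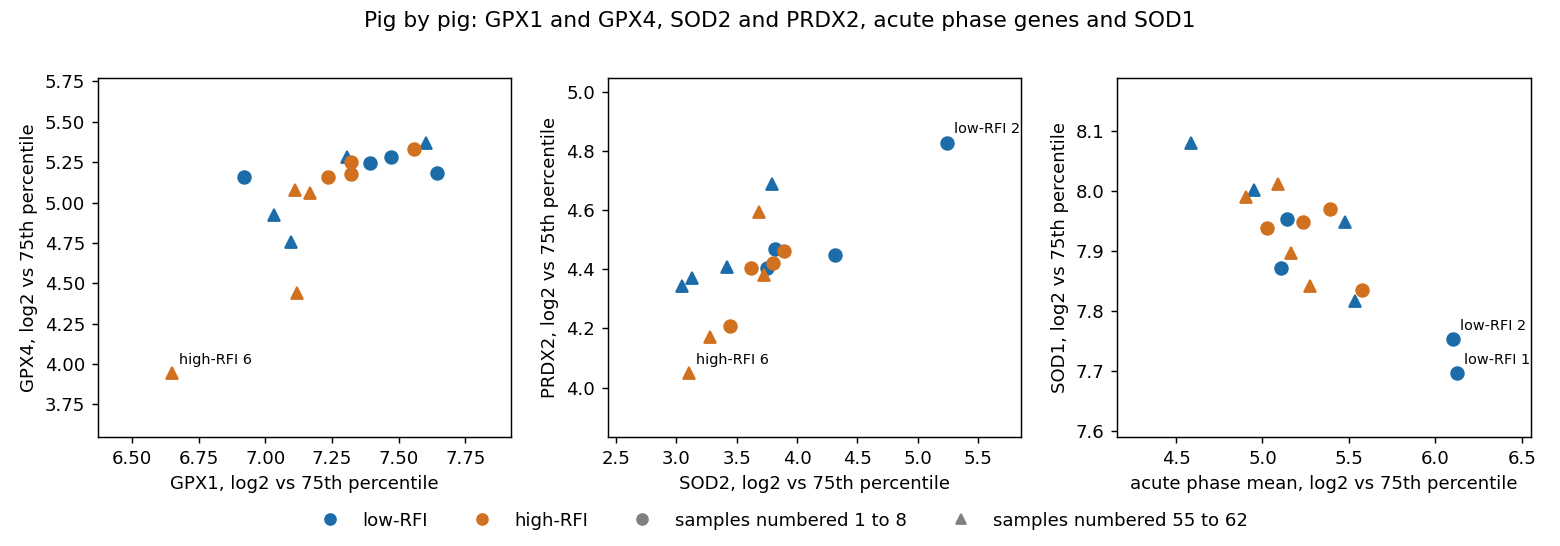
Each point is 1 pig, blue for low-RFI and orange for high-RFI, circles for samples numbered 1 to 8 and triangles for 55 to 62, and axes are log2 levels relative to the array's 75th percentile. High-RFI pig 6 sits lowest for GPX1 and GPX4, low-RFI pig 2 highest for SOD2 and PRDX2, and low-RFI pigs 1 and 2 have the lowest SOD1 at acute phase means of 6.12 and 6.10.

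The named genes most like each member over the 16 pigs were picked by Pearson's r, with no test. GPX4 was followed most closely, by COX7A2 (0.93), POLR2B (0.92) and NME2 (0.92), and GPX1 by TBC1D7 (0.88), NME2 (0.85) and MSRB1 (0.84). SOD2 was most like SELENOK (0.92), TPM4 (0.91) and TSPAN14 (0.90), and PRDX2 like UFC1 (0.89), DERL1 (0.85) and PLGRKT (0.85). For CAT they were COASY (0.87), PLS3 (0.84) and RABEPK (0.82), for TXN ATPIF1 (0.84), PSMB4 (0.82) and EBAG9 (0.81). SOD1 was most like PAQR7 (0.84), ATF6B (0.72) and ZMYND8 (0.70), GPX3 like E2F1 (0.79), FZD6 (0.78) and FAM19A3 (0.76), and PRDX6 like CRYZ (0.78), HMGA1 (0.77) and APOOL (0.77). NME2 stood on the lists of both GPX1 and GPX4. All points share the scaling of their array.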

How the data were processed

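Agilent Feature Extraction 10.7.3.1 (protocol GE1_107_Sep09) produced the scanner files, per the file headers. The deposited processed signal is a linear intensity from which local background and spatial trend were removed, array by array. The authors' deposited table has 27938 spots on the log2 scale and equalled the median-centred log2 processed signal (largest difference 4.5e-08). The submitters' processing notes name R 2.10.0.

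Spots marked as outliers were set to missing, each array's 75th percentile of log2 signal was subtracted, and spots of a probe were averaged. Probes well above background on at least 8 of 16 arrays were tested, 30097 of 43603. Lines were compared with limma 3.58.1 (R 4.3.3), calling probes at a Benjamini-Hochberg adjusted p under 0.05, adjusted over the 30097. Intervals are 1.96 SE. Relations over pigs were tested two-sided with 100000 permutations, the smallest p being 1e-05. The number of arrays limits the precision (median SE 0.16). The fit was tested on simulated data with independent noise and added changes larger than that of any member. Its power for changes of the members' size was therefore not tested.

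Named were all members, the gene with the smallest p per direction of each antioxidant list, and the 3 genes most like each member. The members and lists were chosen with earlier results of these data known. Some probes of SOD2, PRDX2, PRDX6 and the marker genes were named by the full name in their description, a choice made after the descriptions were seen. Symbols and accessions were matched through RefSeq tables of Sscrofa11.1. No genome was used, so positions are given within transcripts.

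Alternatives were quantile normalisation, normexp (offset 50), median scaling, the authors' table, other filters, slide or replicate blocks, array weights, probe means and leaving out each pig. Array position, each slide or series alone, and the line-by-series term were added after the data were seen.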

Additional observations from a re-analysis of the deposited data

How the results depend on the processing

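In every setting run, 0 of 9 members and 0 of the other antioxidant genes passed in limma. The changes of GPX3, PRDX2 and PRDX6 kept their sign in all settings, GPX3 between −1.45 and −0.28. The others turned only within single slides or series: SOD1 was at +0.0366 on slide 4 and +0.0262 in the series numbered 55 to 62, and SOD2 at −0.0659 on slide 3, −0.0332 on slide 4 and −0.10 in that series. CAT was at −0.11 on slide 3, GPX1 at −0.22 on slide 3 and −0.00225 in the series numbered 1 to 8, and GPX4 at −0.0131 on slide 2 and −0.0124 in that series. TXN was at −0.0923 on slide 3, −0.0088 on slide 4 and −0.0077 in the series numbered 1 to 8. These fits hold fewer pigs, 4 per slide and 8 per series. The median change of the members was +0.08 to +0.17 with 1 pig left out, +0.04 under normexp, +0.06 under quantile normalisation, and over the other settings −0.07 (slide 3 alone) to +0.36 (slide 1 alone).

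Over all probes 3 were called, 1 with the filter on all 16 arrays, 7 with array weights, 0 on slides 1, 3 and 4 alone, 1 and 0 in the series alone, and 2 to 5 with 1 pig left out (5 without low-RFI pig 2 or high-RFI pig 4). Of the 36 pairs of members 5 passed, against 2 by rank, 1 under quantile normalisation, 9 under median scaling, 2 within lines, 0 within slides and 3 within series, and 0 to 6 with 1 pig left out (0 without high-RFI pig 6). The cause was not tested. As to pairing, samples with the same replicate number correlated at 0.0474 to 0.395 in their deviations, above 0.1 in 6 of 8 pairs. The main fit left the numbers out because the labels name no pairs, not because of these values. A total of 11 of 16 samples correlated best with their own number, a hint of pairing. The submitters' sample numbers give a further hint. For replicates 1, 2, 5, 6, 7 and 8 they are adjacent between the lines, as in 1 and 2 or 55 and 56. For replicates 3 and 4 they are not, at 5 and 7 and at 6 and 8. Samples with the same replicate number also share a series, and those of replicates 5 and 8 a slide. With the replicate number as a block 4 probes and 0 members were called, and the median SE was 0.132 against 0.160 in the main fit.

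Limits: SOD3 was too dim to measure, PRDX2 rests on 1 probe, most probes carry no symbol, and erythroid markers were few.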

Other observations

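Member levels were also set against 4 measures of the arrays, 36 relations in all, of which 0 passed by Pearson's r and 3 by rank. PRDX6 was lower where the median local background was higher (r = −0.69, permutation p = 0.00173, adjusted p = 0.0623; rho = −0.80, permutation p = 0.00036, adjusted p = 0.013; r = −0.54 without the 2 farthest pigs). TXN had r = −0.64 and rho = −0.71 with the same measure (permutation p = 0.00712 and 0.00233, adjusted p = 0.0854 and 0.0419; r = −0.63 without the 2 farthest pigs). The local background largely followed the slide, at 29 to 30.5 on slide 4, 34 to 35 on slide 3, 36 to 40 on slide 1 and 38 to 39.5 on slide 2. Background and slide therefore cannot be told apart, and the permutations treated all arrays as independent. CAT had r = −0.65 and rho = −0.70 with the 75th percentile of signal (permutation p = 0.00677 and 0.0036, adjusted p = 0.0854 and 0.0432; r = −0.57 without the 2 farthest pigs). That percentile is subtracted from every level, so it enters both sides of this relation and nothing is read from it. The r of GPX4, GPX1 and TXN with the count of probes above background was −0.69, −0.62 and −0.61, and −0.20, −0.29 and −0.08 without high-RFI pigs 6 and 1.

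Markers of fat, muscle and pancreas, of which 7 of 10 were measured, had a summed log2 level between 3.40 and 4.14 in low-RFI livers and between 3.46 and 4.57 in high-RFI livers. Their mean correlated with GPX4 at r = −0.73 (permutation p = 0.00328, adjusted p = 0.159; rho = −0.76, permutation p = 0.001, adjusted p = 0.0495), at −0.72 without high-RFI pigs 4 and 6. This relation passed by rank and not by Pearson's r. Several of the marker genes were dim, with mean levels in low-RFI livers of −4.76 for ADIPOQ, −4.07 for MYH1 and −2.10 for CPA1. They count in the mean as much as ACTA1, at 2.97, so the mean is not read as a measure of these tissues.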
